A study of Homo sapiens with 12 samples.

Results

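Interferon-stimulated genes were followed in a human breast cancer line of the triple-negative class, MDA-MB-468, modified to carry a doxycycline-inducible estrogen receptor beta 1 (ERβ1, from the gene ESR2). The genes were 39 named members of this response, all present among the 23228 genes of the deposited tables, and 38 of them had enough counts to be tested among 14541 genes. EPSTI1 was the one that did not, at 0 to 0.25 CPM (counts scaled to library size) in the 12 libraries. Every library came from the MDA-MB-468-ERbeta1 line kept in medium free of phenol red and in serum stripped with charcoal. Induced cells received doxycycline at 50 ng/mL for 48 h and then 10 nM 17β-estradiol (E2) for 4 h in one group, or 0.1% DMSO vehicle for 4 h in another. Uninduced cells went without doxycycline over the same 48 h and received the same E2 or the same vehicle. Each of the 4 groups held 3 libraries numbered 1 to 3, and the labels do not say whether these were separate cultures, so a p-value measures the spread between these libraries, which may be technical. The line drives ERβ1 from an introduced construct, and no cells without the construct were among the samples analysed here. An effect of doxycycline itself and one of ERβ1 therefore cannot be told apart in these groups.

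Type I and type III interferons act through cell-surface receptors and Janus kinases to phosphorylate STAT proteins, among them STAT2, which joins IRF9 in the complex ISGF3. ISGF3 enters the nucleus and binds interferon-stimulated response elements (ISRE) in the promoters of many genes, while gamma-activated sites (GAS) are elements that answer mainly to interferon gamma. The products sense foreign RNA, block steps of viral replication, attach the ubiquitin-like protein ISG15 to other proteins, and feed back on the receptor. Many carcinoma lines express such genes without added interferon, and in breast cancer they are read as an interferon signature.

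The elements named above were looked for in the 250 bases before the start of each gene, in the RefSeq promoter table of build GRCh38.p14, which held 32 of the 39 members. An ISRE, taken as GAAA, any 2 bases and GAAA again and searched on both strands, lay in 20 of the 32 promoters (62.5%), against 857 of all 27305 promoters (3.14%). A GAS, taken as TTC, any 3 bases and GAA, lay in 10 of 32 (31.2%), against 6.8% of all promoters. The palindromic estrogen response element, GGTCA, any 3 bases and TGACC, had no match in the 32, and 13 matches among all 27305 (0.0476%); no match says only that these letters were not in this window. Of the 5 members in the promoter table that fell with E2 in induced cells, 3 had an ISRE and 1 had a GAS. Windows of 90 bases are shown for 5 members that were higher in induced cells without E2 and carried an ISRE. Among these, IFIT1, IFIT3 and RSAD2 also fell with E2 in induced cells. A window is also shown for IRF1, which fell in induced cells given E2 and had a GAS but no ISRE. Each is written 5′ to 3′ on the gene's own strand, with the motif in capitals; TTTC, any 2 bases and TTTC is the ISRE read on the opposite strand.
IFIT1 (chr10:89392473-89392562, plus strand, ISRE): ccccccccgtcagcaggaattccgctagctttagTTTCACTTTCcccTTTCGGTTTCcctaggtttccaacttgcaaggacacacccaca
IFIT3 (chr10:89332416-89332505, plus strand, ISRE): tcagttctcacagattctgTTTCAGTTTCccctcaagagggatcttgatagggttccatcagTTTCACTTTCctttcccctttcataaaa
RSAD2 (chr2:6877592-6877681, plus strand, ISRE): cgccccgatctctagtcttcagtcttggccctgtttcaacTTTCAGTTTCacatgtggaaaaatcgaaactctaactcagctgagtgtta
ISG15 (chr1:1013347-1013436, plus strand, ISRE): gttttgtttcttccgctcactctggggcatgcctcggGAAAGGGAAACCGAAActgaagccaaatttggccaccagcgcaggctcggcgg
BST2 (chr19:17405708-17405797, minus strand, ISRE): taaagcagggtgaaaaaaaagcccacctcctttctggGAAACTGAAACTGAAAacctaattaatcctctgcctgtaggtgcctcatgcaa
IRF1 (chr5:132490849-132490938, minus strand, GAS): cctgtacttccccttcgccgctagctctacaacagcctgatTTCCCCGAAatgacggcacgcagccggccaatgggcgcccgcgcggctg
IFIT1 and IFIT3 each show 2 separate ISREs, RSAD2 shows 1, and in ISG15 and BST2 the capitals join 2 overlapping matches. In BST2 a pair of GAS matches also falls in the searched promoter. Such a match is a description of the letters and not evidence of binding in these cells.

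ESR2 itself checked the labels. It stood at 116, 98.6 and 98.0 CPM in induced E2 libraries, 134, 113 and 115 in induced vehicle libraries, 2.26, 1.28 and 1.27 in uninduced E2 libraries and 1.37, 1.06 and 1.47 in uninduced vehicle libraries. All 6 induced libraries were far above all 6 uninduced ones, with a log2 fold change of 6.51 (SE 0.08) without E2 and 6.08 (SE 0.08) with E2. The libraries held 7889310 to 33326800 counts, and the 4 libraries numbered 1 were the shallowest of their groups. All 6 epithelial markers passed the filter and they did not all stay level: EPCAM was at 331 to 349 CPM in the 12 libraries, but 3 of the 6 rose and 1 fell with doxycycline both without and with E2. Over all tested genes 5.54% rose and 4.48% fell without E2, and 19.1% rose and 18.2% fell with it. Without E2 the log2 fold change was 0.23 for CDH1 (E-cadherin), 0.27 for the luminal keratin KRT8 and -0.51 for the basal keratin KRT5. With E2 CDH1 rose by 1.17, KRT8 by 0.53 and KRT18 by 0.53, and their part in the results on the members was not tested. Of 12 blood and immune cell markers 4 passed it, and all of them summed to 32.1 to 35.5 CPM in induced E2, 36.4 to 44.9 in induced vehicle, 34.8 to 41.9 in uninduced E2 and 34.0 to 41.0 in uninduced vehicle libraries. CD3D and MS4A1 of this list were at 0 in every library, while the monocyte marker CD14 made up most of the sum in the E2 groups. Of 6 fibroblast and endothelial markers 2 passed the filter, and the 6 summed to 23.8 to 27.1 CPM in induced E2, 24.0 to 26.6 in induced vehicle, 23.5 to 24.5 in uninduced E2 and 20.7 to 24.2 in uninduced vehicle libraries. Of that list DCN and LUM were at 0 in every library, while COL1A1 made up nearly all of the sum, at 19.2 to 26.3 CPM.

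The interferon-stimulated genes were expressed without doxycycline. As in any bulk sample, fewer cells expressing a gene and less RNA per cell cannot be told apart. Per transcript length, on the TPM scale (the share of all transcripts), the mean level in uninduced vehicle cells ran between 9.45 ± 3.03 for MX2 and 770 ± 162 for MX1 (SD, n = 3) among the 38 tested members. MX1 is a dynamin-like GTPase that traps viral nucleocapsids. It was followed by BST2 (tetherin, which holds budding virions at the cell surface) at 579 ± 31.3 TPM and ISG15 at 566 ± 131 TPM, and the ranges of mean ± SD of these 3 genes overlapped. IFI6 and IFI27, small interferon-induced membrane proteins, had 467 ± 78.0 and 346 ± 29.1 TPM. The transcription factor IRF1 was near the low end of the order, between CMPK2 at 20.2 ± 2.91 TPM and SAMD9L at 14.2 ± 2.35 TPM. Transcripts of the interferon genes themselves were few or absent, and whether interferon acted on these cells was not tested. Of 21 interferon genes, 16 had fewer than 3 counts in each of the 12 libraries and 10 of those had none. IL29 (interferon lambda 1) was the only one to pass the filter, at 0.236 to 0.777 CPM, or 1.06 ± 0.28 TPM in uninduced vehicle cells. Its log2 fold change with doxycycline was 0.52 without E2 and -0.62 with it. With E2 it changed by -0.98 in induced and 0.16 in uninduced cells. None of these was called, at 4 to 16 counts per library.

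**Figure D1:**
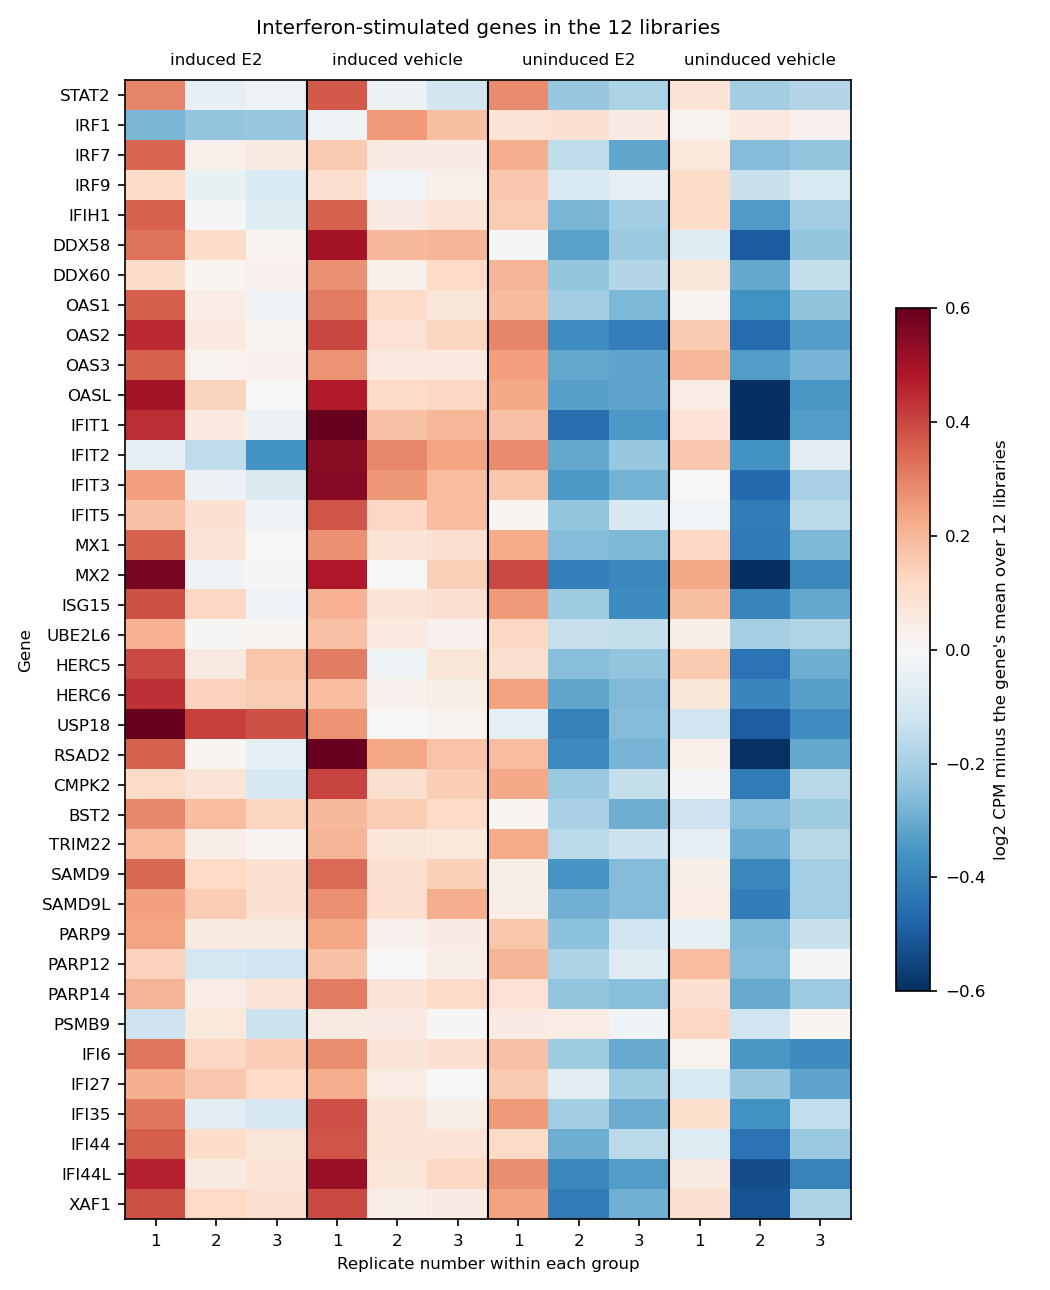
Heat map of the tested interferon-stimulated genes (38 rows, grouped by role) in the 12 libraries (columns, by group and number). Colour gives log2 CPM minus the gene's mean over the 12 libraries, with the scale ending at ±0.6; induced libraries are mostly above and uninduced libraries mostly below the gene means, and library 1 is the highest of its group in most rows.

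Levels also differed by library number. Library 1 was the highest of its 3 for 36 of 38 members in induced E2 cells, and for 37 of 38 in induced vehicle, uninduced E2 and uninduced vehicle cells, while over all tested genes library 1 was highest for 36.6% of genes in induced E2, 40.9% in induced vehicle, 38.1% in uninduced E2 and 40.3% in uninduced vehicle cells. The members' median excess of library 1 over the mean of libraries 2 and 3, on the log2 scale, was 0.27 in induced E2, 0.22 in induced vehicle, 0.41 in uninduced E2 and 0.33 in uninduced vehicle cells, against medians between -0.01 and 0.00 over all genes. MX2 (mean over groups 0.62) and IFIT1 (0.53) had the widest gaps, and IRF1 (-0.07) and PSMB9 (0.04) had the smallest means. Those 2 means join gaps of differing sign: IRF1 had a gap of -0.24 in induced vehicle cells, where library 1 was the lowest, and PSMB9 one of 0.18 in uninduced vehicle cells. Summed over all members, the level was 6722, 5641 and 5478 CPM in induced E2, 6721, 5699 and 5738 in induced vehicle, 6072, 4473 and 4494 in uninduced E2 and 5619.9, 4122 and 4515 in uninduced vehicle libraries. The uninduced E2 library 1 thus exceeded libraries 2 and 3 of each induced group. By the codes in the file names, number 1 carries the tag 10.31 and one lane in every group, and numbers 2 and 3 carry 11.16 and a different lane each. The labels do not say what the tags mean, and tag, lane and number cannot be told apart; the lower depth of library 1 goes with them, and its part was not tested. Comparisons were therefore made within number, with the number as a block in edgeR's quasi-likelihood test, and the count without the block stands beside each.

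**Figure D2:**
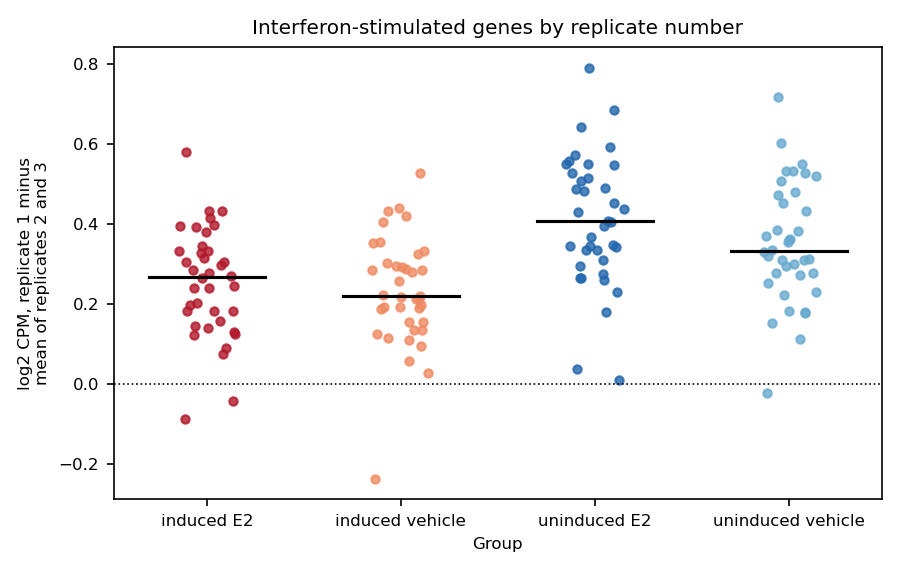
Level of each tested member in library 1 minus the mean of libraries 2 and 3 of the same group (log2 scale, one point per member, 38 per group), with the group medians marked. The medians are 0.27 in induced E2, 0.22 in induced vehicle, 0.41 in uninduced E2 and 0.33 in uninduced vehicle cells.

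The first comparison asked what changed with doxycycline, which induces ERβ1, in cells without hormone. Of the 38 members, 34 rose in induced vehicle cells relative to uninduced vehicle cells, and none fell (edgeR's quasi-likelihood test, Benjamini-Hochberg adjusted p under 0.05 over all genes). Over all 14541 genes, 5.54% rose and 4.48% fell by the same rule. The changes had a median log2 fold change of 0.35 and a range of 0.05 to 0.68, against a median of -0.00 over all genes. The change was upward in each of the 3 numbers for 34 members, as it was for 20.7% of all genes, and for 19 members the 3 induced libraries all lay above the 3 uninduced ones without adjusting for number, as for 10.5% of all genes. Without the block, 6 of 38 rose and none fell, against 2.44% and 1.37% of all genes: DDX58, BST2, IFIT5, USP18, SAMD9L and IFIT3.

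**Figure D3:**
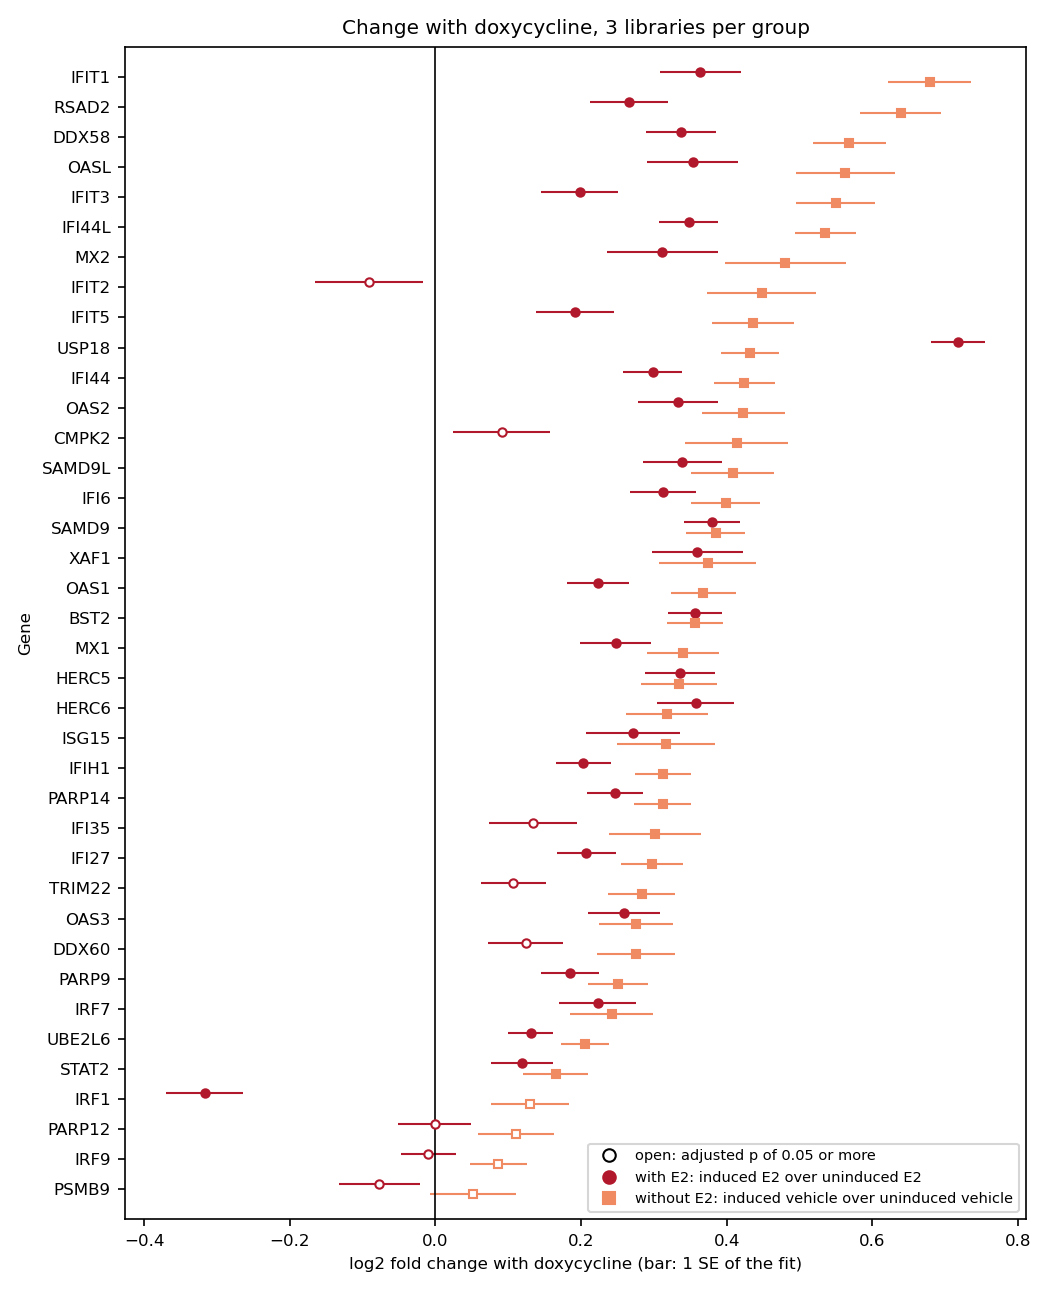
Log2 fold change with doxycycline (points, with bars of ±1 SE from the fit with number as a block) for the 38 tested members, in cells without E2 and in cells with E2, filled where the adjusted p was under 0.05. Without E2 the values run between 0.05 (PSMB9) and 0.68 (IFIT1); with E2 they run between -0.32 (IRF1) and 0.72 (USP18).

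The IFIT genes, whose tetratricopeptide proteins bind foreign RNA and each other, all rose (4 of 4, median 0.50). IFIT1, which captures RNA lacking the host's cap methylation, stood at 326, 225 and 228 CPM in induced vehicle libraries and 211, 123 and 158 CPM in uninduced vehicle libraries. The 3 induced libraries lay above the 3 uninduced ones, with the closest pair being induced library 2 and uninduced library 1. Its log2 fold change of 0.68 (SE 0.06, adjusted p = 6.74e-08) was the highest of the members. IFIT3, which stabilises IFIT1, had 161, 132 and 125 CPM in induced vehicle and 111, 79.8 and 96.5 CPM in uninduced vehicle libraries, again without overlap, and a log2 fold change of 0.55 (SE 0.05, adjusted p = 6.52e-07). IFIT2 and IFIT5 rose by 0.45 and 0.44. RSEM splits reads that fit several related genes by estimation, so the division of counts within the IFIT, OAS and MX families is itself an estimate.

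Among the other antiviral effectors all 6 rose (median 0.40), and in all 6 the induced and uninduced libraries did not overlap. RSAD2 (viperin), a radical SAM enzyme that makes a chain-terminating nucleotide, had 108, 81.5 and 78.2 CPM in induced vehicle libraries and 70.9, 46.1 and 56.2 CPM in uninduced vehicle libraries, with a log2 fold change of 0.64 (SE 0.06, adjusted p = 1.09e-07). The lowest induced library exceeded the highest uninduced one. CMPK2, the nucleotide kinase encoded beside RSAD2, rose by 0.41. BST2 had 307, 298 and 292 CPM in induced vehicle and 246, 224 and 232 CPM in uninduced vehicle libraries, with the induced libraries close together and all above the uninduced ones, and a log2 fold change of 0.36 (SE 0.04, adjusted p = 1.77e-06). SAMD9 and its neighbour SAMD9L, which restrict poxviruses, rose by 0.38 and 0.41, and TRIM22, a ubiquitin ligase, by 0.28.

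The ISG15 genes rose together as well (5 of 5, median 0.32). USP18, the protease that removes ISG15 and restrains the type I receptor, had 116, 96.8 and 98.0 CPM in induced vehicle and 88.8, 68.7 and 74.6 CPM in uninduced vehicle libraries, without overlap, and a log2 fold change of 0.43 (SE 0.04, adjusted p = 2.23e-07). ISG15 had 199.5, 182 and 184 CPM in induced vehicle and 196, 131 and 139.8 CPM in uninduced vehicle libraries, where uninduced library 1 lay within the range of the induced ones. Within number its log2 differences were 0.03, 0.47 and 0.39 for numbers 1 to 3, and the fitted change was 0.32 (SE 0.07, adjusted p = 0.00329). UBE2L6, the ISG15 conjugating enzyme, rose by 0.21, the ligase HERC5 by 0.33 and its relative HERC6 by 0.32.

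The RNA sensors followed (3 of 3 rose). DDX58 (RIG-I) had 113, 91.5 and 91.9 CPM in induced vehicle and 76.1, 56.5 and 67.9 CPM in uninduced vehicle libraries, all induced ones being higher, and a log2 fold change of 0.57 (SE 0.05, adjusted p = 1.27e-07). IFIH1 (MDA5) rose by 0.31 and the helicase DDX60 by 0.28. The OAS genes, which encode the synthetases of the oligoadenylate that activates RNase L and the related OASL, rose in 4 of 4 cases (median 0.40), with the largest change in OASL (0.56) and the smallest in OAS3 (0.28). Both MX genes rose. MX1 had 1403, 1226 and 1234 CPM in induced vehicle and 1265, 864 and 962 CPM in uninduced vehicle libraries, overlapping through uninduced library 1, and changed by 0.34 (SE 0.05, adjusted p = 7.05e-05) within number.

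Of the genes with other or less defined roles, 6 of 6 tested rose (median 0.39). IFI44L had 398, 293 and 303 CPM in induced vehicle and 288, 192 and 210.4 CPM in uninduced vehicle libraries. Induced libraries 2 and 3 exceeded uninduced library 1 by little and the other uninduced libraries clearly. The log2 fold change of 0.54 (SE 0.04, adjusted p = 2.84e-08) had the smallest p of the members, while its adjusted p without the block was 0.165. IFI44 rose by 0.42, IFI6 by 0.40, the apoptosis-linked XAF1 by 0.37, and IFI27 and IFI35 by 0.30 each.

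The transcription factors had a median of 0.15. STAT2 rose by 0.17 and IRF7, the factor that amplifies interferon production, by 0.24. IRF9 and IRF1 did not pass the test, at 0.09 (adjusted p = 0.208) and 0.13 (adjusted p = 0.150). PARP9 and PARP14, ADP-ribosyltransferase family members, rose by 0.25 and 0.31, whereas PARP12 at 0.11 (adjusted p = 0.224) did not pass. PSMB9, the immunoproteasome subunit, had 45.5, 45.3 and 44.0 CPM in induced vehicle and 47.7, 40.3 and 44.1 CPM in uninduced vehicle libraries, with full overlap and a log2 fold change of 0.05 (adjusted p = 0.691).

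The second comparison asked the same of cells exposed to E2. It shares no library with the first, but both come from the same fit, with a shared spread and block. Of the 38 members, 29 rose in induced E2 cells relative to uninduced E2 cells and 1, IRF1, fell, against 19.1% and 18.2% of all genes. The median log2 fold change was 0.25, with a range of -0.32 to 0.72, beside -0.01 over all genes. All 29 were among the 34 that rose without E2 (85.3% of the 34, 100% of the 29). With 34 of 38 members called there, most of any 29 members would be among them. The share of shared calls over all genes was not counted. The change was upward in each number for 30 members, against 29.1% of all genes. In 5 members the induced libraries all lay above the uninduced ones, as they did for 20.9% of all genes, and in IRF1 they all lay below. Without the block 5 rose (USP18, BST2, SAMD9L, SAMD9 and DDX58) and IRF1 fell, no larger shares than the 15% and 13% of all genes.

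USP18 stood apart from the other members. It had 149.8, 128 and 126 CPM in induced E2 libraries and 92.8, 73.0 and 80.6 CPM in uninduced E2 libraries, the lowest induced one being well above the highest uninduced one. Its log2 fold change was 0.72 (SE 0.04, adjusted p = 4.52e-12), the highest of the members and beside 0.43 without E2; the test of that difference is given with the interaction. The other ISG15 genes rose by 0.13 (UBE2L6) to 0.36 (HERC6), so that all 5 of this role rose with E2 too. BST2 had 327, 305 and 293 CPM in induced E2 and 271, 235 and 219 CPM in uninduced E2 libraries, without overlap, and rose by 0.36 (SE 0.04, adjusted p = 1.77e-07), beside 0.36 without E2. SAMD9 likewise had 182, 155 and 152 CPM in induced E2 and 147, 112 and 119 CPM in uninduced E2 libraries, with no overlap and a change of 0.38 (SE 0.04, adjusted p = 1.38e-07). The OAS genes (4 of 4, 0.22 to 0.35) and the MX genes (2 of 2, 0.25 and 0.31) rose as well.

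IFIT2 and IRF1 went otherwise. IFIT2 had 57.3, 53.5 and 46.3 CPM in induced E2 libraries and 72.2, 48.0 and 50.7 CPM in uninduced E2 libraries. These ranges overlapped in part, and the log2 fold change of -0.09 did not pass the test. IRF1 had 25.1, 25.8 and 26.0 CPM in induced E2 and 32.1, 32.4 and 31.5 CPM in uninduced E2 libraries. Every induced library was lower than every uninduced one, and the log2 fold change was -0.32 (SE 0.05, adjusted p = 6.92e-05). Besides IFIT2, the members that did not pass were DDX60, TRIM22, IFI35, PSMB9, CMPK2, IRF9 and PARP12.

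The third comparison asked what 4 h of E2 did in induced cells, and it uses the induced libraries of both comparisons above. Of the 38 members, 1 rose (USP18) and 6 fell (IRF1, IFIT2, IFIT3, RSAD2, IFIT1 and DDX58) in induced E2 relative to induced vehicle cells, against 13.5% and 10.3% of all genes. The 7 of 38 that changed were together no larger a share than among genes at large. By direction, the 6 that fell were a somewhat larger share than the 10.3%, and the 1 that rose a smaller one than the 13.5%. These differences in share were not tested. The median of the members was -0.04. Without the block the calls were USP18 higher and IRF1 and IFIT2 lower, beside 9.85% and 6.61% of all genes.

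USP18 had 149.8, 128 and 126 CPM in induced E2 libraries and 116, 96.8 and 98.0 CPM in induced vehicle libraries. All E2 libraries were higher, and the log2 fold change was 0.38 (SE 0.04, adjusted p = 1.33e-07). IRF1 had 25.1, 25.8 and 26.0 CPM in induced E2 and 30.0, 36.3 and 34.5 CPM in induced vehicle libraries, and IRF1 was the member in which library 1 was not the highest of the vehicle group. The E2 libraries lay closely together below all vehicle libraries, with a log2 fold change of -0.41 (SE 0.05, adjusted p = 7.52e-06). IFIT2 had 57.3, 53.5 and 46.3 CPM in induced E2 and 86.5, 72.6 and 69.9 CPM in induced vehicle libraries, again without overlap, and a log2 fold change of -0.54 (SE 0.07, adjusted p = 1e-05).

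The other 4 members that fell overlapped between the groups through library 1 of the E2 group, and fell within each number. IFIT3 had 131, 108 and 104 CPM in induced E2 and 161, 132 and 125 CPM in induced vehicle libraries, with log2 differences of -0.30, -0.29 and -0.27 for numbers 1 to 3 and a fitted change of -0.29 (SE 0.05, adjusted p = 0.000244). RSAD2 had 88.9, 69.9 and 66.8 CPM in induced E2 and 108, 81.5 and 78.2 CPM in induced vehicle libraries and changed by -0.24 (SE 0.05, adjusted p = 0.00149). IFIT1 changed by -0.21 (SE 0.05, adjusted p = 0.00795) and DDX58 by -0.15 (SE 0.05, adjusted p = 0.0294). The calls of IFIT1 and DDX58 were the least firm. With DESeq2 their adjusted p was 0.0655 and 0.0607, and IFIT1's was 0.0601 without number 1, 0.0767 without induced vehicle library 2, 0.0617 without induced E2 library 1 and 0.0700 without induced E2 library 3. DDX58's call was lost in 6 of the 9 fits that left out 1 library or number, with an adjusted p of up to 0.222. OAS genes (-0.04 to 0.00) and MX genes (-0.04 and -0.01) had no member that passed.

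**Figure D4:**
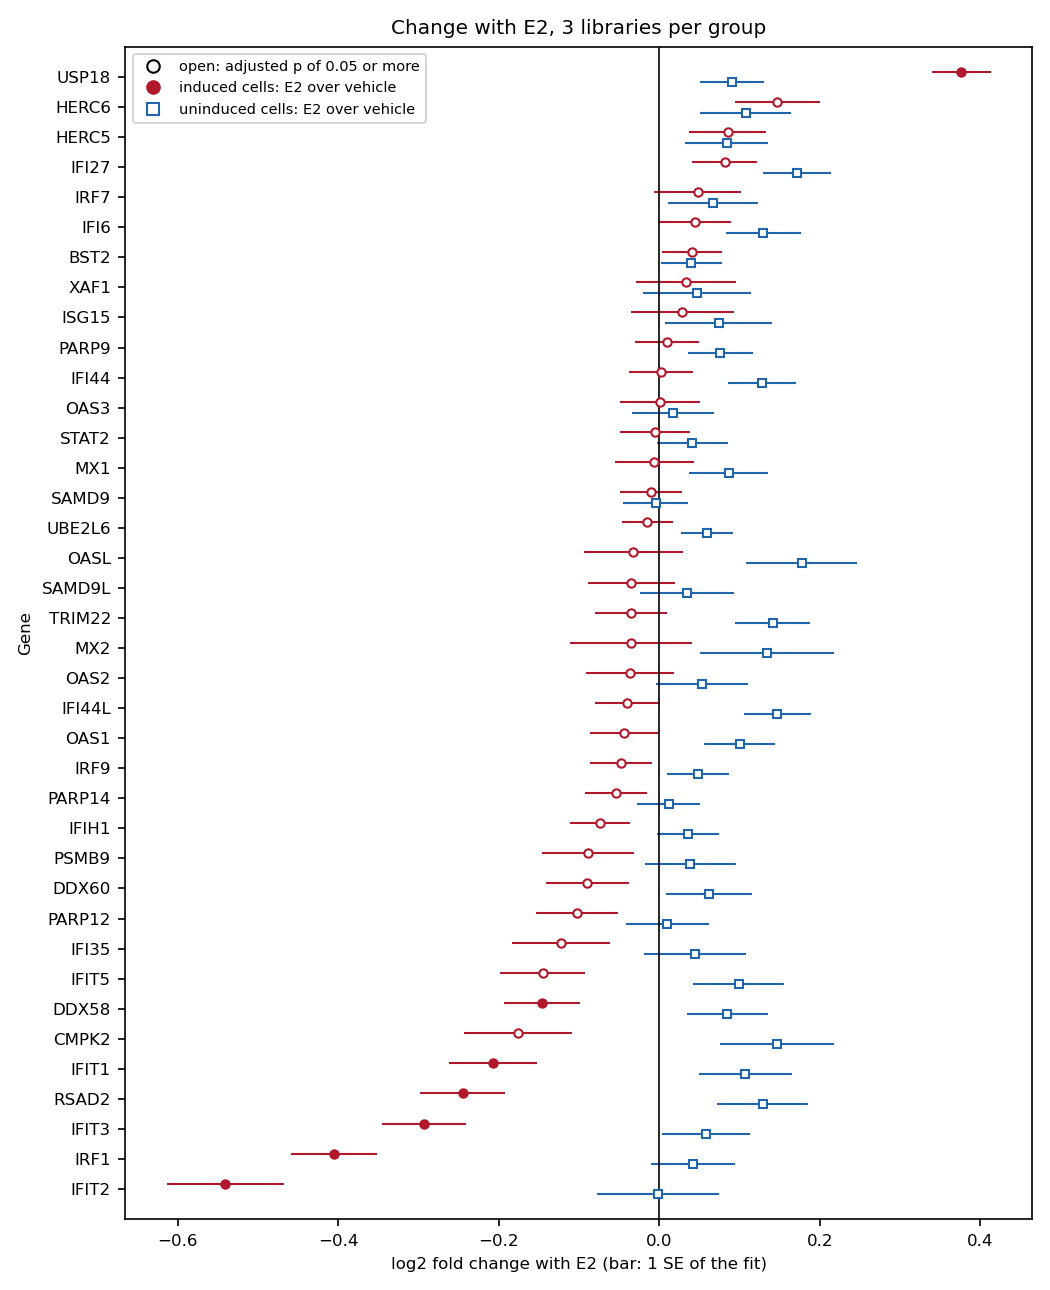
Log2 fold change with E2 (points, bars of ±1 SE) in induced (circles) and in uninduced cells (squares) for the 38 tested members, filled where the adjusted p was under 0.05. In induced cells the values run between -0.54 (IFIT2) and 0.38 (USP18), and in uninduced cells between -0.00 and 0.18.

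In uninduced cells E2 changed no member by the test, and 0% of all genes passed it in either direction, with and without the block. At an unadjusted p under 0.05, 9 members passed with the block and 1 without it, and 451 of 14541 genes did with the block. The median of the members was 0.07, and 36 of 38 were on the positive side. The difference was upward in all 3 numbers for 16 members, against 13.5% of all genes. By number, the members' median difference between uninduced E2 and uninduced vehicle was 0.13, 0.12 and -0.00, so the third pair of libraries did not share the lean of the other two. IFI27 had 119.5, 103 and 92.5 CPM in uninduced E2 and 101, 91.5 and 86.2 CPM in uninduced vehicle libraries, overlapping ranges whose fitted log2 difference was 0.17 (SE 0.04, adjusted p = 1).

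Whether E2 acted differently in induced and uninduced cells was tested as an interaction. For 1 member (USP18) the E2 change was higher in induced cells and for 9 it was lower, against 8.86% and 5.88% of all genes. The 9 were IRF1, IFIT2, RSAD2, IFIT3, IFIT1, DDX58, CMPK2, IFI44L and IFIT5, which takes in all 4 IFIT genes and neither MX gene. The median of the members was -0.10 (-0.01 over all genes), and the difference was downward in all 3 numbers for 24 members, against 22.3% of all genes. IRF1 differed by -0.45 (SE 0.07, adjusted p = 0.000217), IFIT2 by -0.54 (SE 0.11, adjusted p = 0.00105), RSAD2 by -0.37 (SE 0.08, adjusted p = 0.00183) and IFIT3 by -0.35 (SE 0.08, adjusted p = 0.00267), and USP18 by 0.29 (SE 0.05, adjusted p = 0.000811). These 5 kept their calls whichever library or number was left out. Without the block 1 member, IRF1 (adjusted p = 0.00433), was lower and none was higher, against 2.81% and 5.66% of all genes. Leaving out number 1, uninduced vehicle library 2, uninduced E2 library 1, induced vehicle library 2, induced E2 library 1 or induced E2 library 3 took the count of lower members to 5.

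**Figure D5:**
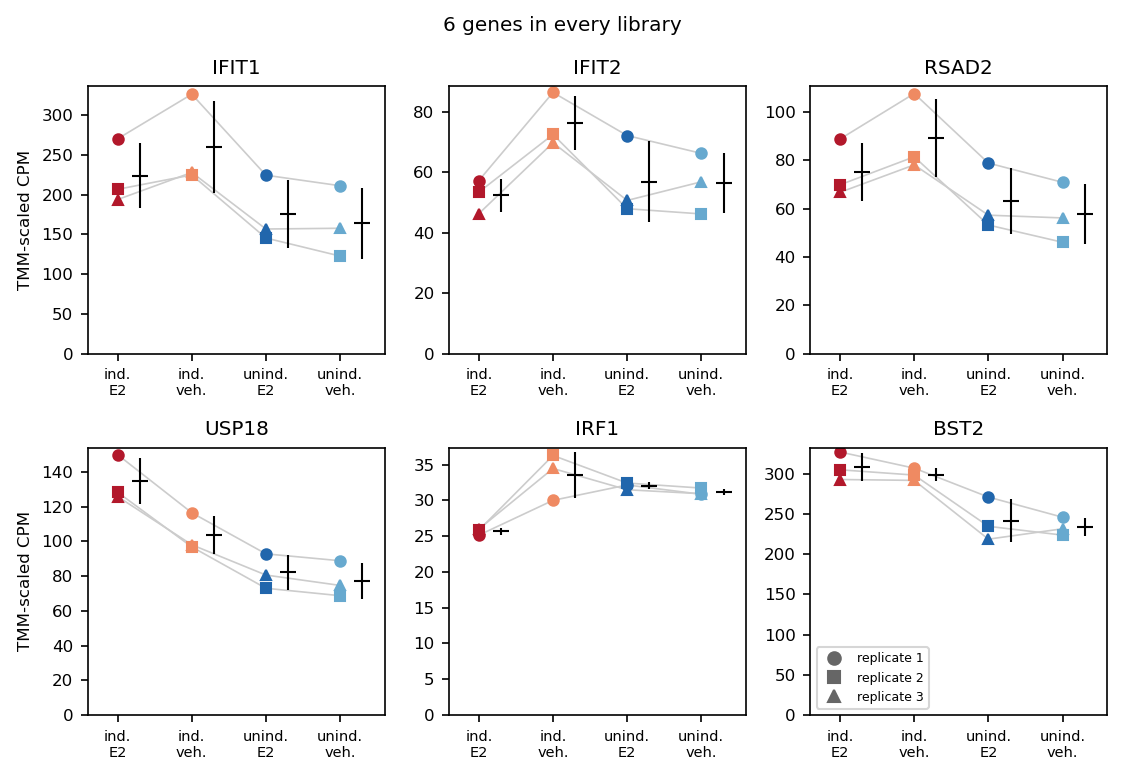
CPM in every library for 6 members over the 4 groups, with the libraries of one number joined across groups and black bars for the group mean ± SD (n = 3). USP18 is highest in induced E2 libraries (126 to 149.8 CPM), IRF1 is lowest there (25.1 to 26.0 CPM), and IFIT2 is at 46.3 to 57.3 CPM there against 69.9 to 86.5 CPM in induced vehicle libraries.

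Other genes of the pathway, taken from lists drawn up with earlier results known, were counted in the same way. Of 42 tested interferon-stimulated genes outside the 39, 24 rose and none fell in induced vehicle relative to uninduced vehicle cells (median 0.20), against 5.54% and 4.48% of all genes. With E2 present 19 rose and 2 fell (median 0.10), against 19.1% and 18.2% of all genes. GBP2, a guanylate-binding GTPase, had the largest log2 fold change among them without E2 (0.90, SE 0.07), at 28.8, 24.6 and 25.6 CPM in induced vehicle and 12.4, 13.9 and 14.5 CPM in uninduced vehicle libraries, where library 1 was not the highest of the uninduced group. TNFSF10 (TRAIL) and IFITM1 rose by 0.32 and 0.29 without E2. In cells given E2, TNFSF10 was at 41.6, 40.9 and 39.6 CPM in induced and 49.5, 44.5 and 46.1 CPM in uninduced libraries, so every induced library was lower. IFITM1 was at 194, 177 and 169 CPM in induced E2 and 183, 151 and 144 CPM in uninduced E2 libraries. LAMP3 rose by 0.89 (SE 0.07) in induced E2 relative to uninduced E2 cells, at 53.4, 52.0 and 53.1 CPM in induced E2 and 34.5, 26.6 and 25.9 CPM in uninduced E2 libraries.

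Among 11 receptor and JAK-STAT genes 4 rose and none fell without E2 (5.54% and 4.48% of all genes), and 7 rose and 1 fell with it (19.1% and 18.2% of all genes). IFNGR1, the ligand-binding chain of the interferon gamma receptor, had 95.5, 85.4 and 86.0 CPM in induced E2 libraries, 157, 143 and 147 in induced vehicle, 165, 154 and 163 in uninduced E2 and 161, 155 and 157 in uninduced vehicle libraries. The induced E2 libraries alone were low, with a log2 fold change of -0.86 (SE 0.03) against uninduced E2 and -0.75 (SE 0.03) against induced vehicle. The kinase JAK1 rose by 0.18 without E2 and by 0.53 with it.

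Of 14 tested sensing adaptors and kinases 5 rose and none fell without E2, against 5.54% and 4.48% of all genes. With E2 2 rose and 1 fell, no larger shares than the 19.1% and 18.2% of all genes. TMEM173 (STING), the adaptor of cytosolic DNA sensing, had 197, 176 and 167 CPM in induced E2, 119, 107 and 109 in induced vehicle, 80.6, 81.9 and 76.5 in uninduced E2 and 69.7, 80.2 and 78.1 in uninduced vehicle libraries. Induced E2 libraries were the highest and induced vehicle libraries second, without overlap; the log2 fold changes were 0.52 (SE 0.05) without E2 and 1.17 (SE 0.05) with it. Of 11 negative regulators 2 rose and none fell without E2, against 5.54% and 4.48% of all genes. In cells given E2 2 rose and 1 fell, again no larger shares than those of all genes. CISH, a STAT5-responsive member of the SOCS family, rose by 0.86 without E2 and by 1.54 with it. ADAR, the RNA-editing enzyme, rose by 0.12 without E2.

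Genes that answer mainly to other inflammatory inputs were counted too. Of 17 MHC class I presentation genes none rose and 1 fell without E2 (HLA-F, -0.14), against 5.54% and 4.48% of all genes. In cells given E2 2 rose and 2 fell, shares no larger than the 19.1% and 18.2% of all genes. Of 15 tested NF-κB targets 1 rose without E2 (TNFAIP2, 0.50), a share near the 5.54% of all genes. With E2 5 rose and 3 fell, against 19.1% and 18.2% of all genes, IL8 by -1.93 (SE 0.28) being the widest. Of 6 tested nuclear and histone RNAs kept as a sign of RNA quality, none changed without E2. In cells given E2 1 fell, no larger a share than the 18.2% of all genes. Among the 4 tested immune markers none changed without E2. With E2 present CD68 rose by 0.43 and CD14 fell by 0.28, against 19.1% and 18.2% of all genes. CD14 was at 21.9, 28.2 and 28.0 CPM in induced E2 and 27.4, 35.9 and 31.2 CPM in uninduced E2 libraries.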

How the data were processed

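RNA-seq libraries of 12 samples were analysed, 3 in each of 4 groups. The deposited tables hold expected counts per gene, estimated with RSEM 1.1.16, and the fraction of transcripts per gene; genome build hg19 and DESeq 1.7.10 are named per the submitters' processing notes. The library kit named in the labels does not mark strand, so antisense reads cannot be told apart. Counts were rounded, scaled by TMM, filtered (minimum count 10, minimum total 15) and tested with edgeR 4.0.16 (quasi-likelihood, R 4.3.3), with group and replicate number as terms, and p-values were adjusted over all 14541 genes. CPM used TMM-scaled totals, log2 CPM a prior count of 2, and TPM is the deposited fraction on its usual scale. Depth was 7889310 to 33326800 counts; 3 counts, the limit that 0 counts allow, equal 0.0896 to 0.375 CPM, for counting error only.

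Numbers were taken as pairs because every number 1 shares a tag and lane code in its file name. Deviations of same-number libraries correlated at 0.0411 to 0.434 (median 0.219, 18 pairs), those of different numbers at -0.398 to 0.318 (median -0.188, 36 pairs), over 12423 genes. The deviations were taken from each group's mean, so positive same-number values push the different-number values below 0, and this contrast is partly built in. The ranges overlapped, with 5 of 18 same-number and 27 of 36 different-number values under 0.1. A shared tag and a pairing by number were not told apart. Alternatives included no replicate block, the tag as covariate, DESeq2 1.42.0, limma-voom 3.58.1, other scalings and filters, and leaving out each library or number. The members and lists were chosen with earlier results of these data known. Full statistics went to at most 10 members per comparison, those called with the smallest p, plus members named for contrast; promoter sequences came from RefSeq (GRCh38.p14). The script was tested on simulated data.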

Additional observations from a re-analysis of the deposited data

Results flagged for a closer look

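For 10 members the E2 change differed between induced and uninduced cells by a test of the difference itself (edgeR's quasi-likelihood interaction, number as a block, adjusted over all genes). USP18 was the one whose E2 change was higher in induced cells, by 0.29 on the log2 scale (adjusted p = 0.000811), in each of the 3 numbers. For the other 9 the E2 change was lower in induced than in uninduced cells. Of these, CMPK2, IFI44L and IFIT5 were not called for E2 in induced cells, at -0.18, -0.04 and -0.15. In uninduced cells they were at 0.15, 0.15 and 0.10, also not called. IRF1 differed by -0.45 (adjusted p = 0.000217), IFIT2 by -0.54 (adjusted p = 0.00105), RSAD2 by -0.37 (adjusted p = 0.00183) and IFIT3 by -0.35 (adjusted p = 0.00267). IFIT1 differed by -0.31 (adjusted p = 0.00918), DDX58 by -0.23 (adjusted p = 0.0285), CMPK2 by -0.32 (adjusted p = 0.0287), IFI44L by -0.19 (adjusted p = 0.0354) and IFIT5 by -0.24 (adjusted p = 0.0404). Each of these 10 had the same sign in numbers 1, 2 and 3.

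Leaving out 1 library or number at a time (15 fits) took the call from IFIT5 in 12 fits, with an adjusted p of up to 0.229, from CMPK2 in 9 (up to 0.182), from DDX58 in 9 (up to 0.171), from IFI44L in 8 (up to 0.143) and from IFIT1 in 1, the fit without number 1 (0.0534).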

How the results depend on the processing

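The replicate block, which compares libraries of the same number, decided most calls. Without it, members higher with doxycycline went to 6 without E2 and 5 with E2, members lower with E2 in induced cells to 2, and the interaction to 0 higher and 1 lower, while no member called with the block changed sign. Over all genes, doxycycline without E2 then gave 355 higher and 199 lower (805 and 651 with the block). Doxycycline with E2 gave 2184 higher and 1894 lower (2774 and 2646). E2 in induced cells gave 961 lower (1497), and the interaction 823 higher and 409 lower (1288 and 855). Without the block, the 5 of 38 members higher with doxycycline and E2 were no larger a share than the 15% of all genes. Nor were the 2 members lower with E2 in induced cells, beside 6.61% of all genes. Members higher with E2 in induced cells were 2 with the tag as covariate, RLE scaling, no filter, the stricter filter or the compared groups alone. Members lower in the interaction were 5 at an adjusted p under 0.01 and 5 with DESeq2. The cause was not tested.

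Leaving out 1 library or number gave 30 to 34 higher with doxycycline without E2 (0 to 0 lower), 25 to 31 higher and 1 to 3 lower with E2, 1 to 2 higher and 4 to 9 lower with E2 in induced cells, and 1 to 1 higher and 5 to 12 lower in the interaction. The medians ran between 0.29 and 0.40, 0.21 and 0.31, -0.08 and 0.01, and -0.14 and -0.071 in the same order (the last without uninduced vehicle library 2), and between 0.02 and 0.13 for E2 in uninduced cells; the median for E2 in induced cells turned positive without induced vehicle library 2. Library 1 was highest in 36 to 38 of 38 members under each scaling.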
